A study of Homo sapiens with 9 samples.

Results

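The metallothioneins and the core of the zinc response were followed as 10 genes of the 27111 that the files list, each matched by its gene symbol. They are the metallothioneins MT1A, MT1E, MT1F, MT1G, MT1H, MT1M, MT1X and MT2A, the metal sensing transcription factor MTF1 and the zinc exporter SLC30A1. All libraries came from PC-3, a human prostate cancer cell line, grown as multicellular tumor spheroids (MTSs) in a Matrigel-containing medium and pooled for each extraction. Empty cells carried the empty pSIN lentiviral vector, NF-YAl cells overexpressed the long splice isoform of NF-YA and NF-YAs cells overexpressed the short one, and all were puromycin-selected stable pools. NF-YA is the subunit of the NF-Y trimer that contacts the CCAAT box of promoters. Each line had 3 libraries from independent experiments, with the letters A, B and C for Empty and for NF-YAs cells, while NF-YAl cells have A, B and D.

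Metallothioneins are small cysteine-rich proteins that bind zinc, copper and cadmium and buffer the free metal in the cell. Zinc activates MTF-1, the product of MTF1, which then binds metal response elements (MREs) in the promoters of the metallothionein genes and of SLC30A1, whose product moves zinc out of the cytosol. Normal prostate epithelium is known for its high zinc content, which is lost in prostate cancer.

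Total expected counts, the reads that RSEM assigned to genes, ranged from 18076979 to 27163976 per library. Levels are given as CPM, each library's counts scaled to a common total, after TMM scaling, and 3 counts, the limit that a count of 0 allows, correspond to 0.118 to 0.162 CPM for counting error only. DEGs were genes with a |log2FC| above 1 and, by the quasi-likelihood test of edgeR, a Benjamini-Hochberg adjusted p under 0.01 over the 17108 tested genes. NFYA itself had mean levels of 91.8 CPM (Empty), 341 CPM (NF-YAl) and 261 CPM (NF-YAs). The study describes the overexpressed isoforms as murine, while its reads were aligned to human transcripts. These NFYA levels therefore need not measure the degree of overexpression. The epithelial keratins KRT8 (109 to 313 CPM) and KRT18 (229 to 375 CPM) and VIM (888 to 1438 CPM) were expressed in every library, and KLK3 had 0 counts. Of the markers of other cells, PTPRC, CDH5, DCN and LUM stayed at or below 0.493 CPM and PECAM1 lay at 1.59 to 7.32 CPM. In such bulk libraries, fewer cells of a type and less RNA per cell cannot be told apart. Library D of NF-YAl stood apart on the third principal component (9.36% of the variance), at -47.5 against 30.9 for A and 2.06 for B. On principal component 2 (26.4%), NF-YAl A lay at -59.0, against -35.9 for B and -31.9 for D. The effect of library D is given where it matters.

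The 8 metallothionein genes lie in 1 cluster on 16q13, which runs from MT4 to MT1X over 119 kb of chromosome 16 (56598985 to 56718108, GRCh37). MT2A occupies chr16:56642496-56643409, MT1F chr16:56691643-56694610 and MT1X chr16:56716382-56718108, all on the plus strand. MTF1 (chr1:38275246-38325264) and SLC30A1 (chr1:211744910-211752503) lie on the minus strand of chromosome 1. Upstream sequence is shown for the 5 of 10 members with an entry in the RefSeq promoter table (GRCh38.p14), because MTF-1 binds MREs and NF-Y binds CCAAT boxes. Each window is the 250 bases before the annotated start on the strand of the gene, written 5′ to 3′. The windows are chr16:56608334-56608583 for MT2A, chr16:56682220-56682469 for MT1X and chr16:56669564-56669813 for MT1H, on the plus strand, and chr1:211579162-211579411 for SLC30A1 and chr1:37859593-37859842 for MTF1, on the minus strand. Capitals mark the MRE core, searched as TGCACNC or TGCGCNC on both strands, and the CCAAT box, searched as CCAAT on both strands (ATTGG on the opposite one).
MT2A: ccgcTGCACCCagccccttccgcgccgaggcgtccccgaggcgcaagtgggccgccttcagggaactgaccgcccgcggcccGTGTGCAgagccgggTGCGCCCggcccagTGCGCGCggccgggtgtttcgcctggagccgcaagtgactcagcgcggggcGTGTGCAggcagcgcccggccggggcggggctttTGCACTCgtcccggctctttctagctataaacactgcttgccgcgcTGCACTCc
MT1X: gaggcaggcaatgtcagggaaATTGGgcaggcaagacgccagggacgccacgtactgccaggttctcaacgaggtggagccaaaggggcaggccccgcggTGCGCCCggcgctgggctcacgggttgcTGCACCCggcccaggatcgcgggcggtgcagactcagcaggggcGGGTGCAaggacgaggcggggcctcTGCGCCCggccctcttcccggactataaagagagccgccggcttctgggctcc
MT1H: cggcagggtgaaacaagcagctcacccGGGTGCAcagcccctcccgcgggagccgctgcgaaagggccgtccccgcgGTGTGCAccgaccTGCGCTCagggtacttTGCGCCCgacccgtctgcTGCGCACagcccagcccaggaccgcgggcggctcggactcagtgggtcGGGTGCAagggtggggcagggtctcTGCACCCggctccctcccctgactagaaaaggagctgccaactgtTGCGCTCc
SLC30A1: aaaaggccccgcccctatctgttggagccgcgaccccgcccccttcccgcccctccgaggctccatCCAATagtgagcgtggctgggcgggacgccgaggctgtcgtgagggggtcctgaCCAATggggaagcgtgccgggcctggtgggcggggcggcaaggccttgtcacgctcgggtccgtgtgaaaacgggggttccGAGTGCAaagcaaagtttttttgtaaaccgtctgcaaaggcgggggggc
MTF1: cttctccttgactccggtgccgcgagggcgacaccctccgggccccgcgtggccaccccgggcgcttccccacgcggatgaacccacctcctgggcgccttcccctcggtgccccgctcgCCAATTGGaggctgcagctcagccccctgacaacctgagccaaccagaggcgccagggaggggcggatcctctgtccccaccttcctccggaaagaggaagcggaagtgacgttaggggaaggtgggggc
The MT2A window held 7 MRE cores, that of MT1H 8, that of MT1X 4 and that of SLC30A1 1, while none was found in the MTF1 window. In MT2A they spread from position -246 to position -2 relative to the start, and the 4 cores of MT1X lie between positions -150 and -47. Over 35116 promoter windows of the same length, 24.8% held at least 1 MRE core, 0.37% at least 4, 0.0313% at least 7 and 0.0171% at least 8. A CCAAT box was found once in MT1X (position -229 to -225, opposite strand), at 2 places in SLC30A1 (-184 to -180 and -130 to -126), and on both strands of 1 overlapping stretch in MTF1 (-130 to -123). The windows of MT2A and MT1H held none. At least 1 CCAAT box was present in 32% of all windows and at least 2 in 9.53%. A match of letters is a description of the window and not of binding.

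MT2A was the leading metallothionein of these MTSs. On the TPM scale, which corrects for length, it ranked 150 of 27111 genes in Empty, 186 in NF-YAs and 429 in NF-YAl MTSs. MT1X ranked 965, 2260 and 4266 in the same order. MT2A alone took 85.8 to 91.1% of all metallothionein counts of a library, and MT2A with MT1X took 98.7 to 99.5%. Only 5 of the 10 members passed the filter on low counts, namely MT2A, MT1X, MT1F, MTF1 and SLC30A1, and log2FC values are given for these alone. Since the members were chosen with earlier results of these data known, their differences are given as a description, with no p-value.

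**Figure D1:**
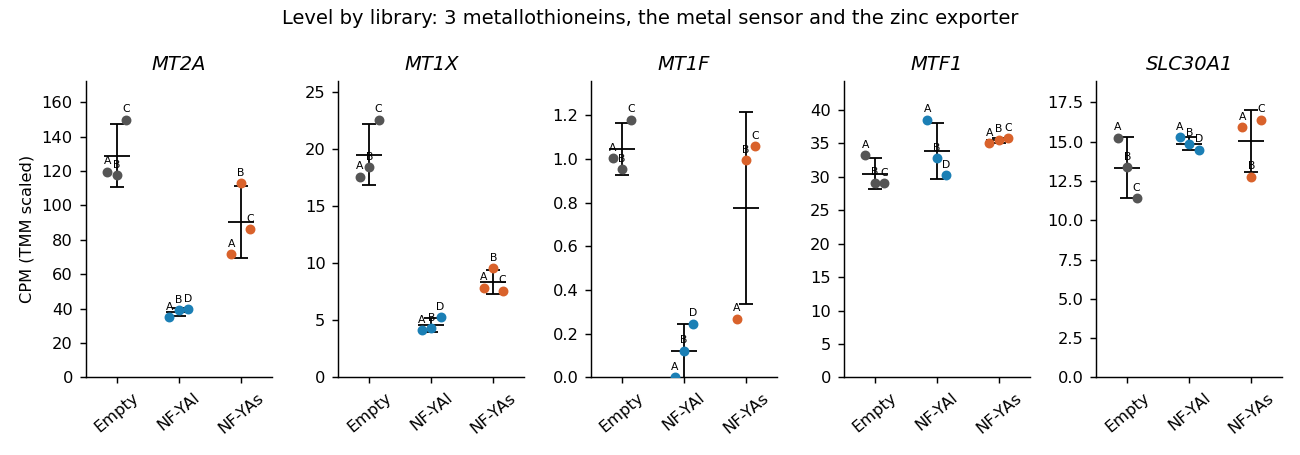
CPM of the 5 members that passed the filter, with 1 panel per gene, a linear axis from 0 and 1 point per library labelled with its replicate letter. Black bars give the mean ± SD of the 3 libraries of a line. MT2A and MT1X lie lowest in NF-YAl and between the other lines in NF-YAs MTSs, while MTF1 and SLC30A1 differ little.

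MT2A stood at 120, 117 and 149.9 CPM in Empty libraries A, B and C. It was at 35.2, 39.2 and 39.6 CPM in NF-YAl libraries A, B and D. In NF-YAs libraries A, B and C it was at 71.9, 113 and 86.4 CPM. All NF-YAl libraries therefore lay below all NF-YAs libraries, and these below all Empty libraries, although NF-YAs B came within 5 CPM of the lowest Empty library. The means were 129 ± 18.1, 38.0 ± 2.43 and 90.4 ± 20.9 CPM in Empty, NF-YAl and NF-YAs (SD, n = 3). The fitted log2FC was -1.76 (SE 0.158) for NF-YAl against Empty, a level 3.40-fold lower. NF-YAs against Empty gave -0.51 (SE 0.153), a level 1.43-fold lower that did not meet the limits for a DEG, and NF-YAl against NF-YAs gave -1.25 (SE 0.156), 2.38-fold lower. The NF-YAs libraries spread more widely than those of the other lines, and without NF-YAs library B the log2FC of NF-YAs against Empty was -0.70, against -0.37 without library A.

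MT1X, the other metallothionein with more than 30 counts in a library, read 17.6, 18.4 and 22.6 CPM in Empty A, B and C. Its values in NF-YAl A, B and D were 4.14, 4.29 and 5.30 CPM. The NF-YAs libraries A, B and C gave 7.86, 9.55 and 7.60 CPM. Here too the 3 lines did not overlap, with NF-YAl lowest and Empty highest. Group means were 19.5 ± 2.67, 4.58 ± 0.63 and 8.34 ± 1.06 CPM in Empty, NF-YAl and NF-YAs (SD, n = 3). The log2FC of MT1X was -2.09 (SE 0.163) for NF-YAl against Empty and -1.23 (SE 0.157) for NF-YAs against Empty, both within the limits for a DEG, and -0.86 (SE 0.166) between NF-YAl and NF-YAs, where the fold was too small for a call.

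The balance between MT2A and MT1X differed between the lines. The ratio of MT2A to MT1X on the TPM scale was 6.42, 6.02 and 6.28 in Empty A, B and C. It was 8.02, 8.59 and 7.06 in NF-YAl A, B and D, and 8.59, 11.1 and 10.7 in NF-YAs A, B and C. Every library of either NF-YA line lay above every Empty library, and the mean ratio was 6.24 ± 0.203, 7.89 ± 0.774 and 10.1 ± 1.36 in Empty, NF-YAl and NF-YAs (SD, n = 3). NF-YAl and NF-YAs libraries met at 8.59. As a ratio within a library, this quantity does not depend on the scaling between libraries, and it shows unequal change without saying which gene moved.

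MT1F was near the limit of detection, with 24, 24 and 30 counts in Empty A, B and C. NF-YAl A, B and D had 0, 3 and 6 counts, and NF-YAs A, B and C had 5, 20 and 23. The Empty libraries (0.953 to 1.18 CPM) did not overlap with the NF-YAl ones (0 to 0.246 CPM), and NF-YAs A, at 0.269 CPM, lay far closer to NF-YAl than to the other NF-YAs libraries. The fitted log2FC was -2.94 (SE 0.633) for NF-YAl against Empty, -0.41 (SE 0.486) for NF-YAs against Empty and -2.53 (SE 0.664) for NF-YAl against NF-YAs. The first was called a DEG, and this call was lost when any Empty library or NF-YAl B was left out, with values from -3.01 to -2.85 on the log2 scale. Without NF-YAl D it was kept at -3.82, and the difference from NF-YAs, at -3.41, was then called as well. The files list 2 MT1F transcripts, of 441 and 483 nt. The longer one received counts in NF-YAs C only, where it took 27.64% of the MT1F TPM.

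The remaining metallothionein members were at or under the limit of a handful of counts and allow no fold. MT1E had 4.06, 3 and 2.78 counts in Empty A, B and C, 1 to 2.01 in NF-YAl and 0 to 2 in NF-YAs libraries. MT1M had 8 counts in NF-YAs B and 0 or 1 elsewhere. MT1A had 1 count in Empty A and 0 in all other libraries, and MT1G and MT1H had 0 counts in all 9 libraries. MT1H, whose window holds the largest number of MRE cores shown above, was therefore not detected at this depth. Of the 8 further metallothionein genes in the files, MT3, MT1L and MT1JP had at most 2 counts in a library, and MT4, MT1B, MT1DP, MT1IP and MT1HL1 had 0.

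Metallothionein transcripts resemble each other, and the authors' software shares reads that match several of them. Of the 50-base stretches of the MT2A transcript, 4.36% also occur in another metallothionein transcript of the cluster, against 16.6% for MT1X, 6.12% for MT1F and 19.9% for MT1G. These shares describe the sequences and do not measure how reads were split. The split between the genes is therefore uncertain, and their counts were also summed. The sum was 149.8 ± 20.8, 42.8 ± 2.89 and 99.8 ± 22.3 CPM for Empty, NF-YAl and NF-YAs (SD, n = 3), with log2FC of -1.81 (SE 0.156) and -0.59 (SE 0.15) against Empty and -1.22 (SE 0.154) between NF-YAl and NF-YAs. The summed level ran from 137 to 174 CPM in Empty, from 39.6 to 45.1 CPM in NF-YAl and from 80.1 to 124 CPM in NF-YAs libraries, with no overlap between any pair of lines.

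MTF1, which encodes the sensor, differed little between the lines. It was measured at 33.2, 29.1 and 29.1 CPM in Empty A, B and C, at 38.5, 32.7 and 30.3 CPM in NF-YAl A, B and D, and at 35.1, 35.5 and 35.8 CPM in NF-YAs A, B and C. NF-YAl overlapped with both other lines, whereas the NF-YAs libraries lay just above all Empty libraries. The log2FC was 0.15 (95% interval -0.09 to 0.39) for NF-YAl against Empty, 0.22 (-0.02 to 0.46) for NF-YAs against Empty and -0.07 (-0.31 to 0.17) between the NF-YA lines.

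SLC30A1, the exporter that MTF-1 controls together with the metallothioneins, had 15.3, 13.4 and 11.4 CPM in Empty A, B and C. NF-YAl A, B and D gave 15.3, 14.9 and 14.5 CPM, and NF-YAs A, B and C gave 15.9, 12.8 and 16.4 CPM. The 3 lines overlapped. The log2FC was 0.16 (95% interval -0.15 to 0.46) for NF-YAl against Empty, 0.17 (-0.14 to 0.48) for NF-YAs against Empty and -0.02 (-0.32 to 0.29) between the NF-YA lines. These intervals leave room for a modest difference in either direction but not for one of the size seen for MT2A in NF-YAl MTSs. Between the NF-YA lines, the sign of both MTF1 and SLC30A1 changed with the processing.

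**Figure D2:**
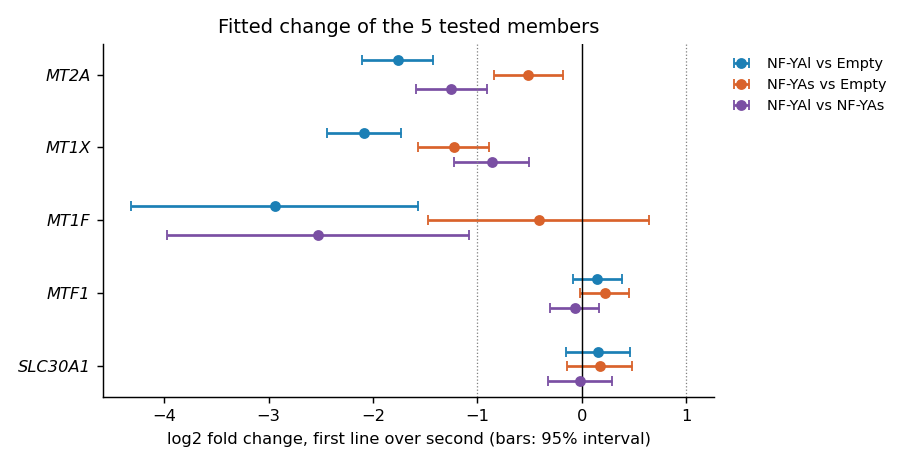
Fitted log2FC of the 5 members that passed the filter in the 3 comparisons, with bars for the 95% interval and dotted lines at a log2FC of -1 and 1. For NF-YAl against Empty the 3 metallothioneins lie below -1, from -1.76 to -2.94, and MTF1 and SLC30A1 lie near 0.

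By count, 3 of the 10 members were called lower in NF-YAl than in Empty MTSs (MT2A, MT1X and MT1F) and 0 higher, beside 3.5% of all tested genes called lower, 4.76% higher and 8.27% in either direction. For NF-YAs against Empty, MT1X alone was called lower, beside 3.9% of all tested genes, and 0 members were higher, beside 5.44% (9.34% in either direction). For NF-YAl against NF-YAs, MT2A alone was called lower, beside 2.86%, and 0 were higher, beside 1.74%. In each of the 3 comparisons, 3 members had libraries that did not overlap between the lines, beside 42.4%, 56.4% and 39.5% of all tested genes in the same order. DESeq2 called the same number of members against Empty and 2 between the NF-YA lines. Nothing is read from these counts, since the members were chosen on these data.

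The fit drew on libraries that differ in composition. The mean fragment length was 145.2 to 166.9 nt per library, and the 408 tested genes shorter than 600 nt had a median log2FC of -0.21 for NF-YAl against Empty and -0.11 for NF-YAs against Empty, beside 0.01 and -0.00 for all tested genes. With an offset for effective length, added after these data were seen, MT2A kept a log2FC of -1.76 for NF-YAl and -0.48 for NF-YAs against Empty. Without NF-YAl library D, the log2FC of NF-YAl against Empty was -1.79 for MT2A, -2.21 for MT1X and -3.82 for MT1F. Without NF-YAl library A, the values were -1.71, -2.02 and -2.47 in the same order of genes.

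Genes that move zinc and copper or respond to metal and stress were set beside the members. Among the other zinc exporters of the SLC30 family, 5 of 9 were tested and 0 were called in any comparison, with median log2FC of -0.12 for NF-YAl and -0.15 for NF-YAs over Empty and 0.19 between the NF-YA lines, beside 0.01, -0.00 and 0.02 for all tested genes. Both comparisons with Empty share the same 3 Empty libraries. Over all tested genes, edgeR called 8.27% (NF-YAl against Empty), 9.34% (NF-YAs against Empty) and 4.61% (between the NF-YA lines) in either direction. In each comparison 2 of the 5 had an unadjusted p under 0.05, and DESeq2 also called 0. The share of all tested genes with an unadjusted p under 0.05 was not taken. Nothing is therefore read from counts at that limit in any list. The exporter nearest to a call was SLC30A5, which loads zinc into the early secretory pathway, with 61.3 CPM in Empty and 39.5 CPM in NF-YAs (log2FC -0.63, SE 0.132, adjusted p = 0.00276 by edgeR).

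Of the 14 zinc importers of the SLC39 family, 11 were tested and 0 were called by edgeR or DESeq2, with median log2FC of -0.01, -0.24 and 0.00 in the same order. EdgeR called 8.27%, 9.34% and 4.61% of all tested genes in that order. At an unadjusted p under 0.05, 2, 8 and 5 of the 11 passed, with no share of all tested genes beside them. Of these, 0, 2 and 4 were higher in the first line of the comparison. SLC39A7, which releases zinc from the endoplasmic reticulum, had a mean of 333 CPM in Empty MTSs, 300.7 CPM in NF-YAl and 184 CPM in NF-YAs. This gave a log2FC of -0.86 (SE 0.106, adjusted p = 7.67e-05 by edgeR) for NF-YAs against Empty and 0.71 (SE 0.106, adjusted p = 0.000743 by edgeR) for NF-YAl against NF-YAs. The plasma membrane importers SLC39A10 and SLC39A6 showed -0.80 (SE 0.16, adjusted p = 0.00215) and -0.42 (SE 0.109, adjusted p = 0.00954 by edgeR) for NF-YAs against Empty. These 3 importers passed the adjusted p with a fold under the limit, and NF-YAl against Empty gave -0.15, -0.19 and 0.09 for SLC39A7, SLC39A10 and SLC39A6, without passing it. SLC39A8 (log2FC 0.56, adjusted p = 0.0222) and SLC39A14 (0.49, adjusted p = 0.0214 by edgeR) were higher in NF-YAs than in Empty, without passing the adjusted p. At the adjusted p alone, 3 of 11 importers were lower in NF-YAs than in Empty, beside 10.5% of all tested genes.

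All 11 copper handling genes were tested and 0 were called by edgeR or DESeq2, with median log2FC of -0.15, 0.01 and -0.09. The shares of all tested genes called were those given above. At an unadjusted p under 0.05, 3, 4 and 3 of them passed, of which 1, 2 and 1 were higher in the first line of the comparison. The copper importer SLC31A1 had -0.57 (SE 0.0905, adjusted p = 0.00044 by edgeR) for NF-YAs against Empty, with 158 CPM in Empty and 106 CPM in NF-YAs. SCO2, which delivers copper to cytochrome c oxidase, had -0.84 (SE 0.162, adjusted p = 0.00201 by edgeR) for NF-YAl against Empty. ATP7B went the other way against Empty, without passing the adjusted p. It had 0.45 (adjusted p = 0.0129) in NF-YAl and 0.40 (adjusted p = 0.0207 by edgeR) in NF-YAs.

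Of 11 oxidative and heavy metal stress genes, 3 fell in NF-YAs against Empty by both edgeR and DESeq2, beside 3.9% of all tested genes called lower by edgeR. For NF-YAl against Empty 0 were called by either tool, beside 8.27% of all tested genes called by edgeR. At an unadjusted p under 0.05, 7 passed, all lower, with no share of all tested genes beside them. The medians were -0.32, -0.35 and 0.03. FTH1, the heavy chain of the iron store ferritin, went from 2197 CPM in Empty to 1008 CPM in NF-YAs (log2FC -1.12, SE 0.113, adjusted p = 1.71e-05 by edgeR) and stood at 1164 CPM in NF-YAl (log2FC -0.92, adjusted p = 8.22e-05, under the fold limit). The heat shock genes HSPA1A and HSPA1B fell in NF-YAs with log2FC of -1.27 (SE 0.134, adjusted p = 2.46e-05) and -1.39 (SE 0.12, adjusted p = 6.53e-06 by edgeR), and since these are near-identical copies, reads may be split between them. The quinone reductase gene NQO1 had -0.74 (adjusted p = 6.17e-05) in NF-YAl and -0.65 (adjusted p = 0.000134 by edgeR) in NF-YAs against Empty, both under the fold limit. HMOX1, encoding heme oxygenase, stood at 12.6, 11.7 and 10.9 CPM in Empty, NF-YAl and NF-YAs and was not called.

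Metallothionein genes also respond to glucocorticoids, and 8 of 9 genes of the glucocorticoid receptor list were tested. SGK1, a kinase gene, fell in both lines, from 24.3 CPM in Empty to 9.53 CPM in NF-YAl (log2FC -1.35, SE 0.235, adjusted p = 0.000995) and 11.9 CPM in NF-YAs (log2FC -1.03, SE 0.233, adjusted p = 0.00462 by edgeR). DUSP1 (log2FC -1.60, SE 0.404, adjusted p = 0.00878) and ERRFI1 (log2FC -1.41, SE 0.287, adjusted p = 0.00237 by edgeR) fell in NF-YAs. DESeq2 called 2 of these 3 in NF-YAs, and the calls depended on single libraries. All were lost without NF-YAs B (log2FC -0.90, -1.33 and -1.25 for SGK1, DUSP1 and ERRFI1) and without NF-YAs C (-0.99, -1.40 and -1.34), that of DUSP1 also without any Empty library (-1.71 to -1.51) and that of SGK1 without Empty B (-1.09) or C (-0.77). The receptor gene NR3C1 was not called, at 60.3, 81.8 and 63.4 CPM in the same order of lines. TSC22D3, a glucocorticoid-induced gene, lay on the other side of 0, with 0.69 (adjusted p = 0.00103) in NF-YAl and 0.48 (adjusted p = 0.00911 by edgeR) in NF-YAs, under the fold limit. Medians of the list were -0.39, -0.41 and 0.29. Between NF-YAl and NF-YAs, 0 genes of any list were called by edgeR, beside 4.61% of all tested genes in either direction, and 4 passed the adjusted p alone, beside 11%. DESeq2 also called 0, and 17 list genes had an unadjusted p under 0.05, a count with no share of all tested genes beside it.

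**Figure D3:**
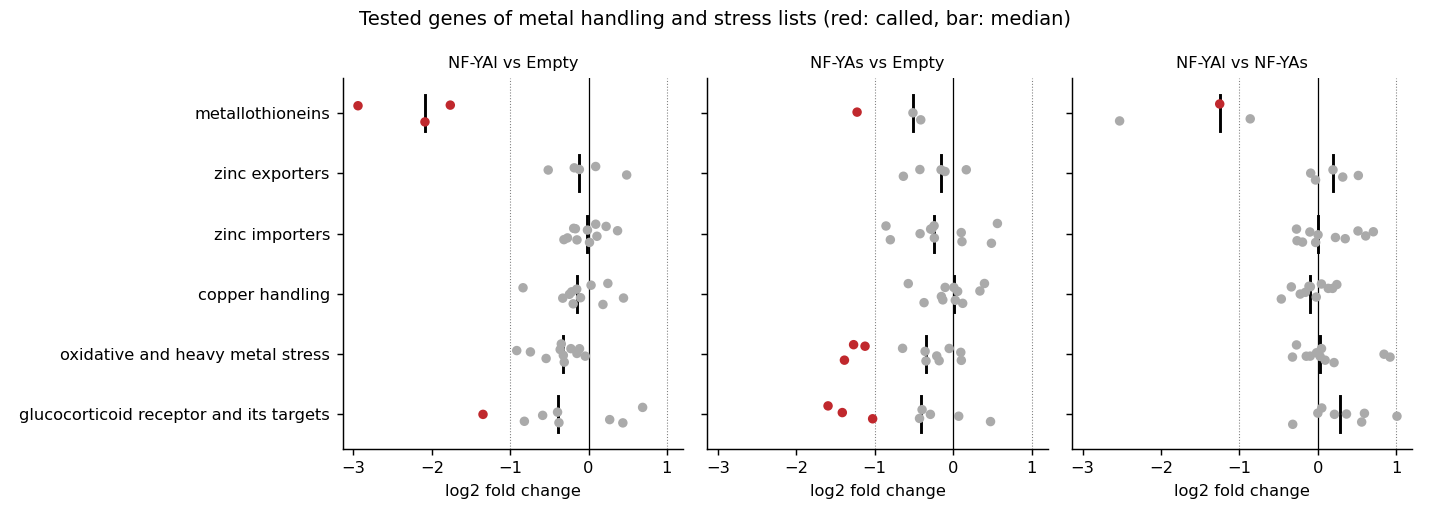
Log2FC of the tested genes of each list in the 3 comparisons, with 1 point per gene, red where it was called a DEG, a black bar at the median and dotted lines at -1 and 1. The 3 metallothioneins lie at or below -1.76 for NF-YAl against Empty, where SGK1 is the only called gene among the other lists.

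The neighbours of the cluster were compared next, as all tested genes that start within 1 Mb of either end. There were 20, with 5 before and 15 after the cluster. For NF-YAl against Empty, 19 of 20 had a negative log2FC, beside 48.9% of all tested genes, and their median was -0.67. At the adjusted p alone, 14 of the 20 passed in either direction, beside 19.6% of all tested genes. With the fold limit, HERPUD1 (log2FC -1.10, SE 0.124, adjusted p = 4.74e-05), NLRC5 (-1.28, SE 0.244, adjusted p = 0.00173) and ADGRG1 (-1.29, SE 0.153, adjusted p = 6.68e-05 by edgeR) fell, and PLLP rose from 0.255 to 0.827 CPM (log2FC 1.69, SE 0.402, adjusted p = 0.00693 by edgeR). The call of NLRC5 was lost without Empty B (-1.18), and that of PLLP without any Empty library, NF-YAl B or NF-YAl D (1.46 to 2.01). The call of PLLP was also lost when the letters served as a replicate block (1.46) and in a fit of these 2 lines alone (1.69), and that of NLRC5 with the block (-0.96). PLLP overlaps with ARL2BP on the opposite strand, so its counts are uncertain unless counting used strand. HERPUD1 acts in the degradation of misfolded proteins, NLRC5 activates MHC class I genes, ADGRG1 is an adhesion receptor gene and PLLP encodes the membrane protein plasmolipin. NUP93, a nuclear pore gene and the nearest tested gene after the cluster, went from 109 CPM in Empty to 68.3 CPM in NF-YAl, a log2FC of -0.67 (SE 0.142, adjusted p = 0.00341 by edgeR), and BBS2, a ciliary gene that reaches into the cluster from the other side, had -0.43 (SE 0.0958, adjusted p = 0.00492 by edgeR).

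The metallothioneins lay below their surroundings in NF-YAl MTSs. Against the neighbour median, the log2FC of NF-YAl over Empty differed by -1.10 for MT2A, -1.42 for MT1X and -2.27 for MT1F, and 0 of the 20 neighbours lay below any of them. Of all 17108 tested genes, 227 lay below MT2A and 148 below MT1X.

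In NF-YAs against Empty the picture differed by gene. The neighbours had a median log2FC of -0.43, with 16 of 20 negative, beside 50.3% of all tested genes. HERPUD1 fell (log2FC -1.32, SE 0.125, adjusted p = 1.18e-05 by edgeR) and PLLP rose (log2FC 2.25, SE 0.39, adjusted p = 0.000822 by edgeR), and the other 18 were not called. MT2A differed from this median by -0.08 and MT1F by 0.02, each with 10 of 20 neighbours lower. MT1X differed from it by -0.80, with only HERPUD1 lower among the 20. Between NF-YAl and NF-YAs, the neighbours had a median of -0.13 with 13 of 20 negative, beside 48.1% of all tested genes, and MT2A and MT1X differed from it by -1.12 and -0.73. NLRC5 (-1.87, SE 0.245, adjusted p = 0.000324) and ADGRG1 (-1.68, SE 0.154, adjusted p = 3.55e-05 by edgeR) were the neighbours called in this comparison, both lower in NF-YAl, and both lay below MT2A. At the adjusted p alone, 8 of 20 neighbours passed for NF-YAs against Empty, beside 22.6% of all tested genes.

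**Figure D4:**
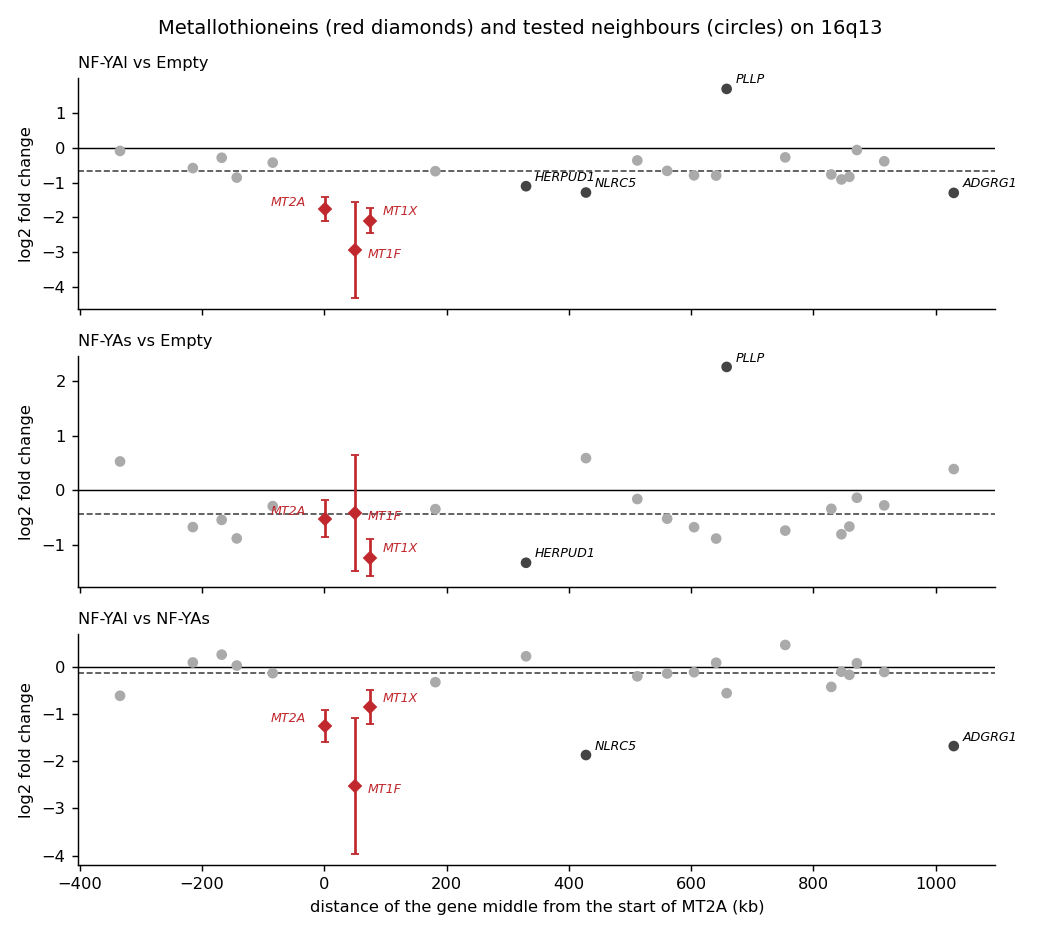
Log2FC of the 20 tested neighbours (circles, dark where called) and of MT2A, MT1X and MT1F (red diamonds with bars for the 95% interval) against the distance of each gene's middle from the start of MT2A, in kb. The dashed line is the median of the neighbours, and the metallothioneins lie below it in the upper and lower panels, while MT2A and MT1F lie near it for NF-YAs against Empty.

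Lower values were not limited to the 1 Mb on either side. On the long arm of chromosome 16 beyond that distance, 240 of 279 tested genes had a negative log2FC for NF-YAl against Empty (median -0.51) and 234 of 279 for NF-YAs against Empty (median -0.45). On the short arm the medians were -0.09 and -0.05 over 393 genes, with 248 and 226 negative. Between NF-YAl and NF-YAs both arms were near 0, at -0.07 and -0.03. This comparison of the arms was added after the values of the neighbours were seen. The members on 16q therefore lie in a stretch whose genes were generally lower in both NF-YA lines, and the part of this in the metallothionein values was not tested.

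The level of MT2A over the 9 libraries was then matched against 11085 genes with at least 10 CPM in 1 line. The genes with the highest Pearson correlation of log2 CPM were LINC00920 (r = 0.985), DDX58 (0.985), MX1 (0.984), OAS3 (0.983) and LAMB3 (0.983). DDX58 encodes the RNA sensor RIG-I, MX1 and OAS3 are interferon-induced antiviral genes, LAMB3 encodes a laminin chain and LINC00920 is a non-coding RNA gene. MT1X ranked 108 with r = 0.937, and MTF1 and SLC30A1 had r = -0.36 and r = -0.52. These values are a description over 9 libraries of 3 lines, which share their line and their depth.

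MX1 averaged 187 ± 17.6, 29.5 ± 0.527 and 119 ± 44.6 CPM in Empty, NF-YAl and NF-YAs MTSs (SD, n = 3). OAS3 followed with 606 ± 12.4, 166 ± 16.8 and 389 ± 104 CPM, and DDX58 with 99.0 ± 12.5, 30.6 ± 2.54 and 71.3 ± 7.05 CPM. Like MT2A, all of these were lowest in NF-YAl. Within the NF-YAs line, library A was lowest and library B highest for MT2A and for all 5 of these genes. Since the 5 were picked for their correlation with MT2A over the same libraries, these shared orders follow largely from the choice.

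**Figure D5:**
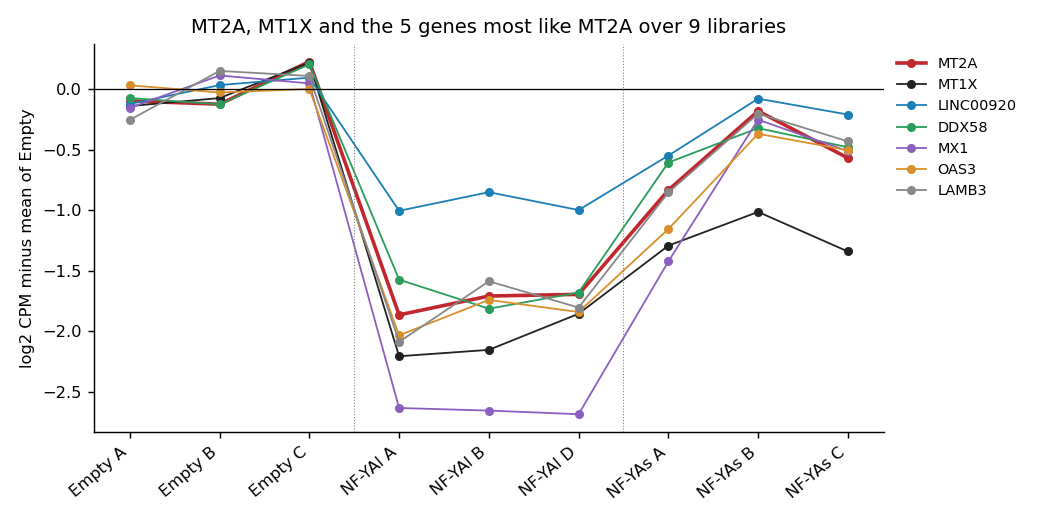
Log2 CPM minus the mean of the Empty libraries in each of the 9 libraries for MT2A, MT1X and the 5 genes most like MT2A, with lines joining the values of a gene only to guide the eye. MT2A sits at -1.86 to -1.69 in NF-YAl and at -0.83 to -0.18 in NF-YAs libraries, and MT1X lies below it in both NF-YA lines.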

How the data were processed

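RNA-seq of 9 libraries of PC-3 MTSs was analysed, in 3 lines of 3. Libraries were made with a stranded total RNA kit. The authors aligned reads to human transcripts (hg19) with Bowtie2 within RSEM and deposited expected counts, TPM and FPKM per gene and transcript, and, for transcripts, the percent that each contributes to its gene. FPKM were not used. The deposited expected counts were not normalized, and the deposited TPM had been scaled by the authors to 1 total per library. Much of that total is RN7SL1, RN7SL2 and RN7SK, which were lower in NF-YAl D, so TPM were mainly compared within libraries. The ranks used the mean TPM of a line, and the limma alternative compared TPM between lines. Both therefore carry this difference, also where a call was lost with limma. Whether counting used strand is not given in the sources used here.

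Expected counts were rounded, filtered with filterByExpr (17108 of 27111 genes kept), scaled by TMM and tested with edgeR 4.0.16 (R 4.3.3) in 1 quasi-likelihood fit of the 9 libraries. SEs are |log2FC| over the square root of F, and 95% intervals use the t distribution with the degrees of freedom of the fit. DEGs met the study's thresholds (|log2FC| above 1, adjusted p under 0.01). The members, lists and tests were chosen with earlier results of these data known. Besides the members, genes were named by rule, as called genes of each list (up to 4 by |log2FC| with at least 5 CPM in the higher line), list genes given for their role, the nearest and the called neighbours, the 5 genes most like MT2A, NFYA and markers. The gene lists were written from general knowledge, and 1 of the markers is not reported here.

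The fit was tested on simulated counts for NF-YAl against Empty over 17108 genes, where 178 of 200 changed genes were recovered and 1 unchanged gene was called. Each changed gene was given a log2FC of 2 up or down. Changes near the fold limit were not simulated, so the recovery of such changes is not known. Replicates differed beyond counting noise (chi-square per gene 6.42 to 93.2), and p-values measure the spread between these libraries. No repeat transduction of a construct is described, so p-values do not cover differences between separately derived lines. With 3 against 3, an exact permutation test could not go below p = 0.1. Residuals of libraries with the same letter had a mean correlation of 0.0862 over 7 pairs (-0.0652 to 0.253). Pairs with different letters had a lower mean, -0.0299 over 20 pairs, with an overlapping range (-0.22 to 0.163). The letters were not taken as pairs in the main fit, although these values do not exclude pairing. GENCODE annotation of GRCh37 placed 16194 of 17108 tested genes, 736 of them through an older symbol. Promoter windows came from RefSeq (GRCh38.p14), and no coordinate was converted. Alternatives were other scalings and filters, a replicate block, 2-group fits, DESeq2 1.42.0, limma 3.58.1 on log2(TPM + 1), other thresholds, an effective length offset, summed metallothionein counts, the 10 nearest genes on each side and leaving out each library. Figures used matplotlib 3.10.9.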

Additional observations from a re-analysis of the deposited data

Results flagged for a closer look

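MT2A differed between the overexpressing lines. Its log2FC of NF-YAl against NF-YAs was -1.25 (SE 0.156), with all 3 NF-YAl libraries (35.2 to 39.6 CPM) below all 3 NF-YAs libraries (71.9 to 113 CPM). The value came from the contrast of the lines within the fit of all libraries and is a description, since the gene was chosen with these results known. With limma on log2(TPM + 1) it was -1.13 and no longer met the limits for a DEG.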

How the results depend on the processing

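Over 260 values of member log2FC under the alternatives, 238 kept their direction and their side of the limits, 8 passed the limits anew, 7 no longer passed them and 7 changed sign. The sign changes were all between NF-YAl and NF-YAs. MTF1 gave 0.053 with limma on TPM and -0.17 to 0.0066 when 1 library was left out, above 0 without NF-YAl D only. SLC30A1 gave 0.027 with library totals, 0.11 with limma and -0.12 to 0.054 when 1 library was left out, above 0 without NF-YAl D, NF-YAs A or NF-YAs C. The causes were not tested.

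The counts of called members were 3 for NF-YAl and 1 for NF-YAs against Empty, and 1 between these lines. The NF-YAs count was 0 with limma. The last count was 2 with DESeq2, with an adjusted p under 0.05 and without a fold limit, and 1 to 2 when 1 library was left out, 2 without NF-YAl D or NF-YAs A. With limma that count stayed 1, but of another gene, since MT2A was no longer called (-1.13) and MT1F was (-1.36). With the letter as a replicate block these counts were 3, 1 and 1. Called genes of the lists, 1, 6 and 0 in the same order, were 3 for NF-YAl with the replicate block. They were 0 and 1 against Empty with limma, and 7, 14 and 4 without a fold limit. Leaving out 1 library gave 1 to 2 (2 without NF-YAl D), 3 to 6 (3 without NF-YAs B or NF-YAs C) and 0 to 1 (1 without NF-YAs A). Called neighbours, 4, 2 and 2, were 0 and 1 against Empty with limma and 14 and 8 without a fold limit. With the replicate block the NF-YAl count was 3, as PLLP (1.46) and NLRC5 (-0.96) were lost and ARL2BP (-1.08) was gained. For NF-YAs they were 1 with at least 10 counts in every library and 6 with the 10 nearest genes on each side. For NF-YAl, leaving out 1 library gave 2 to 4, with 2 without Empty B. MT1F has no value with at least 10 counts in every library, since it is then removed. Depth limits MT1F and every member below it.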
